A study of Mus musculus with 2 samples.

Results

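Among bone marrow cells sequenced as a stem cell pool, 212 of 3286 kept cells (6.45%, 95% interval 5.64 to 7.35%) carried at least 1 unique molecular identifier (UMI, 1 captured transcript) of Flt3 or Cd48. These cells were chosen by those UMIs, so the levels of both genes are given as a description only. A barcode was kept as a cell with at least 500 UMIs, at most 20% mitochondrial UMIs, under 3 UMIs over Mpo, Elane, Ctsg, Prtn3, Ms4a3, Mcpt8 and Prss34, and under 20 UMIs over S100a8, S100a9, Camp, Ngp and Ltf. The limits on these 12 genes of neutrophils, basophils and mast cells also set part of what the chosen cells can express. These genes are called granule genes below for short, though not all encode granule proteins. Flt3 was seen in 163 cells, Cd48 in 52 cells and both in 3 cells. Cells with a Flt3 UMI are called Flt3 cells below, those with a Cd48 UMI Cd48 cells, and all of them the Flt3 or Cd48 cells.

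The pool mixed cells from mice labelled Mds1-GFP/+ Flt3-Cre, taken after removal of cells with the lineage markers B220, Gr1, Ter119, CD4 and CD8 and sorted on live GFP signal alone, with long-term hematopoietic stem cells (LT-HSCs) of wild-type mice, sorted live as Lin-cKit+Sca+CD48-CD150+. In the reporter mice, loxP sites flank the GFP cassette, so Cre recombinase under Flt3 control removes it in cells with Flt3 activity and in their descendants. The pool was loaded on the inDrops droplet platform in 2 aliquots, so n is 1 pool, the aliquots are technical, and no test between groups was possible. Genotype, sort and mouse go together and cannot be told apart, and the age and sex of the mice and the number pooled are not given in the sources used here.

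Flt3 encodes the receptor tyrosine kinase for Flt3 ligand, which is absent from the surface of mouse LT-HSCs and appears on multipotent progenitors that head toward lymphoid and myeloid fates. Cd48 encodes a lipid-anchored protein of the SLAM family, a group of immune cell surface proteins used to tell stem cells from progenitors. SLAM-sorted LT-HSCs carry CD150 (Slamf1) and lack CD48 on the surface, while most progenitors and mature blood cells carry CD48. Cd34, a sialomucin, and Cd27, a receptor of the tumour necrosis factor family, accompany the same step.

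Promoter sequences are shown for the genes that chose the cells and for Cd34 and Plac8, which differed between the cell sets without being used to choose them. Each runs 5′ to 3′ on the gene's strand from 250 bases before to 50 bases after the start, from RefSeq on GRCm38.p6. Capitals mark the cores TGTGGT, bound by RUNX factors, and GAGGAA, bound by PU.1, sought on both strands.
Flt3: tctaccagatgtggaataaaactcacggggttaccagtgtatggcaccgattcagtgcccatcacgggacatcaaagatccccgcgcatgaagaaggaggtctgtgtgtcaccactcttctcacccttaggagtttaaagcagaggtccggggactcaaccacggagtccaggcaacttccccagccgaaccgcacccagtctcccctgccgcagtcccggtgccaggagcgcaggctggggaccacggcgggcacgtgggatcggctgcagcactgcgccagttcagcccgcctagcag
Cd48: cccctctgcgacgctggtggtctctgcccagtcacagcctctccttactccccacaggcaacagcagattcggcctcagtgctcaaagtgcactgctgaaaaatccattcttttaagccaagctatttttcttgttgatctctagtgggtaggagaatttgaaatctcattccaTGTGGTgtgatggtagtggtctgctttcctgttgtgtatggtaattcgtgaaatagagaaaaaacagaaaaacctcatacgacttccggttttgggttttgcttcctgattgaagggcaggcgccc
Cd34: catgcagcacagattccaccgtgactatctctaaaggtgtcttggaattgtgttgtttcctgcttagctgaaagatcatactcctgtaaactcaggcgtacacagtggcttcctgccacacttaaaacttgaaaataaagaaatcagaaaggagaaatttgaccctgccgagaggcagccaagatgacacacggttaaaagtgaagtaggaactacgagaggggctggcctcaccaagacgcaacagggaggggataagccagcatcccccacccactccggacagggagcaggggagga
Plac8: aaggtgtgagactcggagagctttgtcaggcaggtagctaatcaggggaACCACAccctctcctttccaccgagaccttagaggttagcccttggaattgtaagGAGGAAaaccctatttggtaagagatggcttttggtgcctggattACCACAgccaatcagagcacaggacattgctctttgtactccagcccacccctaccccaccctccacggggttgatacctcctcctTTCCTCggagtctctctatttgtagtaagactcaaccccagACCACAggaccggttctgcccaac
Flt3 lies at chr5:147400440-147400739 on the minus strand, Cd48 at chr1:171681742-171682041 and Cd34 at chr1:194938571-194938870 on the plus strand, and Plac8 at chr5:100572156-100572455 on the minus strand. Cd48 held 1 RUNX core and 0 PU.1 cores, Plac8 held 3 RUNX cores and 2 PU.1 cores, and the windows of Flt3 and Cd34 held neither motif. No matches overlapped. Of 32851 mouse promoters of this length, 16.8% held the RUNX core and 28.3% the PU.1 core. A match describes letters only and was not tied to binding here.

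Aliquot 1 gave 78 Flt3 or Cd48 cells among 1550 kept cells (5.03%, 4.00 to 6.24%), and aliquot 2 gave 134 among 1736 (7.72%, 6.51 to 9.08%). Kept cells had a median of 942 UMIs in aliquot 1 and 2062 in aliquot 2, and the Flt3 or Cd48 cells had 1056 and 2346. Detection went with depth in aliquot 2, where the share was higher in each successive one of 4 near-equal bins of kept cells ordered by total UMIs. In that aliquot the share was 4.84% in the shallowest bin and 11.98% in the deepest. In aliquot 1 the 4 bins gave 3.36%, 3.63%, 7.22% and 5.91%. After each cell was thinned to 500 UMIs, 90 of 3286 cells kept a Flt3 or Cd48 UMI (2.74%), with 2.52% in aliquot 1 and 2.94% in aliquot 2, and the intervals of the aliquots overlap. A cell without a UMI is thus not shown to lack either transcript.

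**Figure D1:**
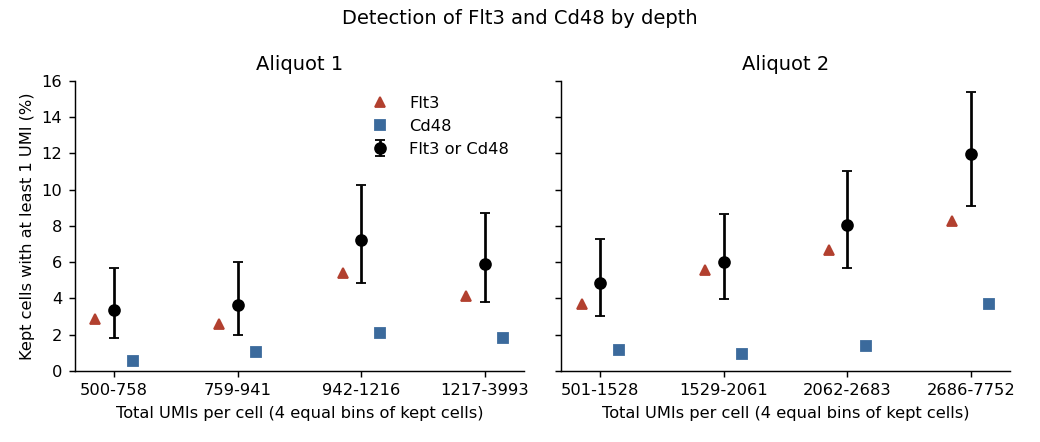
Share of kept cells (vertical axis, percent) with at least 1 UMI of Flt3 (triangles), Cd48 (squares) or either (circles, with 95% Clopper-Pearson intervals for counting error), by bin of total UMIs per cell (4 near-equal bins of cells in each aliquot). In aliquot 2 the share with either gene was 4.84% in the shallowest and 11.98% in the deepest bin.

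Most of the chosen cells rest on a single transcript. Flt3 and Cd48 together had 1 UMI in 162 cells, 2 in 39, 3 in 7, 4 in 3 and 5 in 1. The Flt3 cells held 216 Flt3 UMIs and the Cd48 cells 62 Cd48 UMIs. Both genes met in 3 cells, against 3.02 expected if the genes were detected independently within each aliquot and depth bin. The chosen cells are therefore a union of Flt3 cells and Cd48 cells with almost no shared cells.

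Just inside the limit on the first 7 granule genes lay 157 kept cells with 2 UMIs, 13 of them with Flt3 or Cd48, and just outside lay 56 cells with 3 UMIs, 8 of them with Flt3 or Cd48. Of the chosen cells, 156 had no UMI of the 12 genes. At the lower limit of depth, 86 kept cells had fewer than 550 UMIs and 2 of them were chosen.

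A set chosen by 1 UMI calls for a look at barcodes below the cell limit, which may hold free RNA or shallow cells; which of these they hold was not tested. In aliquot 2, the 6291 barcodes under 200 UMIs, with a median of 75 UMIs, carried Flt3 at 45.7 CPM (counts per 1000000 UMIs; 29.3 to 67.9), against 40.6 CPM (34.4 to 47.5) in kept cells. Cd48 stood at 19.0 CPM (9.12 to 35.0) in those barcodes, against 10.1 CPM (7.13 to 13.8) in kept cells. Per UMI, neither gene was rarer in these shallow barcodes of aliquot 2 than in its kept cells. In aliquot 1 the 201 such barcodes held 0 Flt3 UMIs and 1 Cd48 UMI among 30319 UMIs.

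A comparison inside the kept cells used the 149 cells with a UMI of Gata1 or Klf1, factors of the erythroid and megakaryocyte lineages in which Flt3 is silent. Flt3 was seen in 2 of those 149 cells (1.34%, 0.163 to 4.77%; median 2340 UMIs), against 161 of the 3137 others (5.13%, 4.39 to 5.96%; median 1341 UMIs). In the deeper set with Gata1 or Klf1 the Flt3 share was lower, but it rests on 2 cells and the intervals overlap. Cd48 was seen in 4 of the 149 (2.69%, 0.736 to 6.73%), against 48 of the 3137 (1.53%, 1.13 to 2.02%). For Cd48 the intervals overlap too, and since erythroid and megakaryocyte progenitors may carry Cd48, these cells give no background level for it.

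For the comparison, each Flt3 or Cd48 cell was set beside 2 other kept cells of the same aliquot with the nearest total UMIs. This gave 210 Flt3 or Cd48 cells with 410529 UMIs and 419 matched others with 811951 UMIs, at medians of 1831 and 1829 UMIs. Median mitochondrial share was 4.77% in the Flt3 or Cd48 cells and 4.76% in the matched others. Of the chosen cells 2 of aliquot 2, with 6944 and 6856 UMIs, found no match, and the deeper of them held 35 UMIs of the platelet gene Pf4. Each ratio below is CPM in the Flt3 or Cd48 cells over CPM in the matched others, with a 95% interval that covers counting error only. The pool's label as LT-HSCs was set beside a marker of the sort: Kit, the stem cell factor receptor, was seen in 55.2% of the Flt3 or Cd48 cells and in 58.5% of the matched others.

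Cd34, a marker that the choice of cells did not use, was higher. Its level was 554 CPM in aliquot 1 and 435 CPM in aliquot 2 in the Flt3 or Cd48 cells, against 283 CPM in aliquot 1 and 239 CPM in aliquot 2 in the matched others. Both aliquots of the Flt3 or Cd48 cells lay above both of the others, and the ratio was 1.85 (1.51 to 2.27). Cd34 UMIs were found in 91 of 210 Flt3 or Cd48 cells (43.3%) and in 123 of 419 others (29.4%), and after thinning in 16.7% against 11.9%.

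Cd27 differed less. It stood at 283 CPM in aliquot 1 and 304 CPM in aliquot 2 in the Flt3 or Cd48 cells, against 232 CPM in aliquot 1 and 214 CPM in aliquot 2 in the matched others, a ratio of 1.37 (1.08 to 1.74). The share of cells with Cd27 was 34.3% against 29.1%, but 11.0% against 11.9% after thinning to 500 UMIs, where the ratio of levels was 1.50. Thinned share and level thus ran in opposite directions, and no order is read from the share. Cd34 or Cd27 was present in 128 of 210 Flt3 or Cd48 cells (61.0%) and in 209 of 419 others (49.9%). Both were present in 35 of the 210 (16.7%) and in 36 of the 419 (8.59%).

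**Figure D2:**
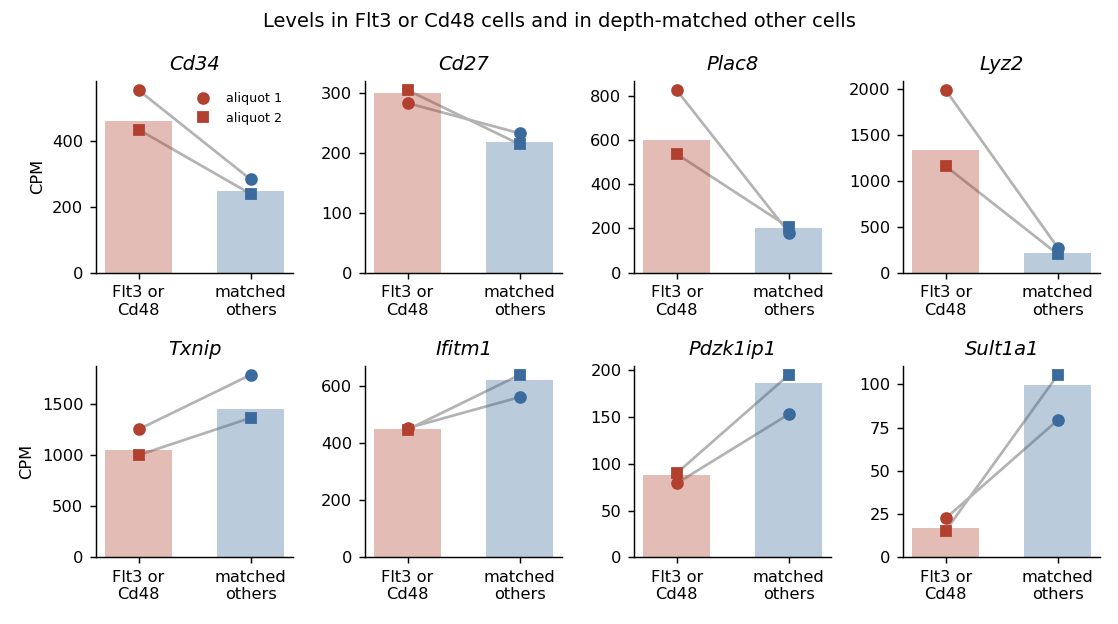
Levels (vertical axes, CPM, from 0) of 8 genes in Flt3 or Cd48 cells (left, red) and depth-matched other cells (right, blue); bars are both aliquots summed, circles aliquot 1 and squares aliquot 2, with lines joining an aliquot's values. Cd34, Cd27, Plac8 and Lyz2 were higher and Txnip, Ifitm1, Pdzk1ip1 and Sult1a1 lower in the Flt3 or Cd48 cells of both aliquots.

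Genes of lymphoid priming and early progenitors were mostly higher. Of 24 genes on that list, 15 reached 10 UMIs observed or expected in the Flt3 or Cd48 cells. In the Flt3 or Cd48 cells 12 of the 15 had a higher level, 7 were at least 1.5-fold higher and 0 at least 1.5-fold lower. Over all 7526 genes with that many UMIs, 12.8% were at least 1.5-fold higher and 12.9% at least 1.5-fold lower. The median log2 ratio was 0.55 for the list, with 0.63 in aliquot 1 and 0.52 in aliquot 2, against 0.00 over all genes. A minimum on the Flt3 or Cd48 cells lets in genes such as Dntt that are high there, so the list was also counted over genes with at least 30 UMIs in both cell sets summed, a limit added after the values were seen. With it, 10 of 13 genes were higher, beside 3260 of 6767 over all genes. Of the 13, 5 were at least 1.5-fold higher, beside 9.15% of all genes, and the median was 0.52. Genes such as Cd52, with 31 against 6 UMIs, still passed this limit only through the Flt3 or Cd48 cells. The second count is thus not free of that choice either. Summed over all genes of the list with a feature, the level was 2336 CPM in the Flt3 or Cd48 cells and 1624 CPM in the matched others. Il7r, the interleukin 7 receptor, Rag1, the recombinase of antigen receptor genes, and Spib had 0 UMIs in both cell sets.

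The rarest of these transcripts were the most unequal. Dntt, the DNA polymerase that adds bases at antigen receptor joints and an early mark of lymphoid priming, had 12 UMIs in 4 Flt3 or Cd48 cells and 0 in the matched others. Set against a floor of 3 UMIs over the matched others, Dntt was at least 7.91-fold higher, a value that leaves out the counting error of its own 12 UMIs. The lower end of its interval was 5.50, and without the cell that held 5 of the UMIs the value against the floor was 4.62. All 12 Dntt UMIs came from Flt3 cells. The leukocyte surface genes Cd53 (a tetraspanin) and Cd52 (a small lipid-anchored glycoprotein) had 24 against 2 UMIs and 31 against 6 UMIs. Their ratios were 23.7 (5.89 to 207) for Cd53 and 10.2 (4.20 to 29.96) for Cd52. Cells with monocyte genes, described below, held part of these UMIs, and without those cells the ratios were 11.9 for Cd53 and 5.93 for Cd52. Against all other kept cells without matching they were 5.09 and 3.58.

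Better measured genes of the list differed by smaller factors. Emb, a membrane glycoprotein that partners a lactate transporter, had a ratio of 1.81 (1.31 to 2.50), with 3.99 in aliquot 1, 1.41 in aliquot 2 and 1.31 (0.907 to 1.88) without cells with monocyte genes. Ikzf1, the lymphoid transcription factor Ikaros, had a level of 195 CPM against 136 CPM, a ratio of 1.44 (1.06 to 1.94). Runx2, a RUNX family factor, stood at a ratio of 1.40 (1.04 to 1.89), with 1.66 in Flt3 cells, 0.620 in Cd48 cells and 0.909 in cells with at least 2 UMIs of the 2 genes. Il12a, a subunit of interleukin 12, was counted 17 times against 16 in cell sets of unequal size, a ratio of 2.10 (0.998 to 4.44). Lsp1 at 1.46 (0.887 to 2.38; 0.706 without cells with monocyte genes) and Notch1 at 1.15 (0.552 to 2.32) had intervals that include 1. Bcl11a at 0.999, Tcf3 at 0.948 and Mef2c at 0.917, which are transcription factors of lymphoid development, differed by less than counting error.

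Genes of the LT-HSC state were mostly lower. All 26 genes on that list had a feature, and 22 reached 10 UMIs. Of these, 19 were lower in the Flt3 or Cd48 cells, 9 at least 1.5-fold lower and 0 at least 1.5-fold higher, beside 12.9% of all genes at least 1.5-fold lower. With 30 UMIs over both cell sets, 18 of 21 were lower, beside 3507 of 6767 over all genes. Of the 21, 8 were at least 1.5-fold lower, beside 11.7% of all genes. Sult1a1, Fgd5, Ctnnal1 and Tek, each with under 10 UMIs in the Flt3 or Cd48 cells, passed both minimums only through the matched others. Neither count is thus free of genes let in by that side. The median log2 ratio was -0.47, with -0.43 in aliquot 1 and -0.48 in aliquot 2. Summed over the list, the level was 4582 CPM in the Flt3 or Cd48 cells and 5856 CPM in the matched others. Abundant genes such as Txnip (1057 CPM against 1459 CPM) and Hlf (682 CPM against 664 CPM) weigh heavily in this sum. It does not describe each gene or each cell.

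Sult1a1, a sulfotransferase listed among LT-HSC marks, had the lowest ratio. It had 22.6 CPM in aliquot 1 and 15.5 CPM in aliquot 2 in the Flt3 or Cd48 cells, against 79.3 CPM in aliquot 1 and 105 CPM in aliquot 2 in the matched others. Both aliquots were low in the Flt3 or Cd48 cells, and with 7 against 81 UMIs the ratio was 0.171 (0.0666 to 0.369). Fgd5, a guanine nucleotide exchange factor used to mark LT-HSCs, had 4 against 32 UMIs and a ratio of 0.247 (0.0635 to 0.697), but 1.04 when every cell was thinned to 500 UMIs. Pdzk1ip1, used in a stem cell reporter mouse, stood at 87.7 CPM against 186 CPM, a ratio of 0.471 (0.318 to 0.682). Ctnnal1, a catenin relative, had 7 against 44 UMIs, and Tek, the angiopoietin receptor, had 8 against 44. The Tek ratio was 0.360 (0.146 to 0.772) over both aliquots but 1.20 in aliquot 1 alone, from 3 against 5 UMIs.

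Txnip and Ifitm1 had the most UMIs among the genes of this list with intervals below 1. Txnip, a brake on glucose uptake and thioredoxin, had 1255 CPM in aliquot 1 and 1003 CPM in aliquot 2 in the Flt3 or Cd48 cells, against 1790 CPM in aliquot 1 and 1368 CPM in aliquot 2 in the matched others, a ratio of 0.724 (0.647 to 0.809). Ifitm1, an interferon-induced membrane protein, had a ratio of 0.721 (0.605 to 0.855). Mecom, the locus that carries the reporter and a transcription factor needed by LT-HSCs, had 35 against 114 UMIs, a ratio of 0.607 (0.403 to 0.894). Procr, the endothelial protein C receptor EPCR, had a ratio of 0.670 (0.458 to 0.962) and Gimap6 one of 0.616 (0.416 to 0.893). Mllt3, a chromatin reader, had a ratio of 0.648 (0.437 to 0.942), with 1.18 in aliquot 1 and 0.525 in aliquot 2, so its direction held in aliquot 2 alone.

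Several stem cell factors were level over the whole set. Hlf, a leucine zipper factor, had 682 CPM in the Flt3 or Cd48 cells and 664 CPM in the others, a ratio of 1.03 (0.886 to 1.19). By gene the Hlf ratio was 1.21 (1.03 to 1.42) in Flt3 cells and 0.415 (0.263 to 0.633) in Cd48 cells. Meis1 stood at 0.989 (0.804 to 1.21), Gata2 at 0.947 (0.773 to 1.16) and Ly6a, which encodes the sort marker Sca-1, at 0.914 (0.705 to 1.18). Slamf1, which encodes the sort marker CD150, fell short of 10 UMIs and had 0 UMIs in the 210 Flt3 or Cd48 cells against 16 UMIs in 13 of the 419 others. Slamf1 is named here after its values were seen, and the interval of its ratio was 0 to 0.513.

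**Figure D3:**
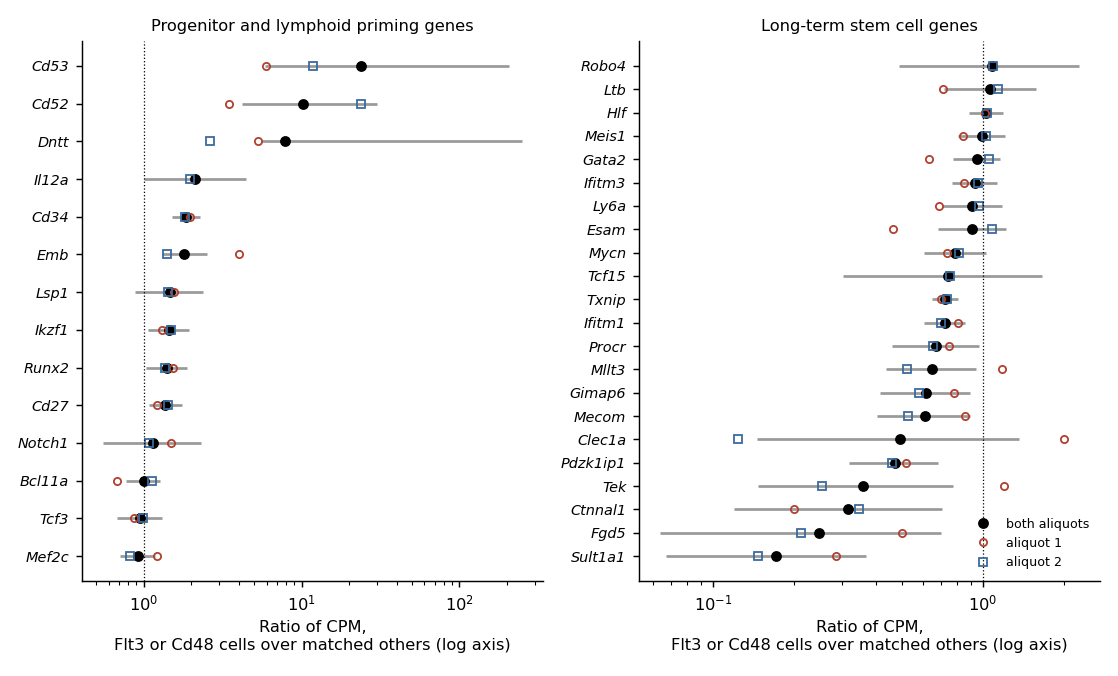
Ratios (horizontal log axes) of CPM in Flt3 or Cd48 cells over matched others for 14 measured progenitor and lymphoid genes (left) and the 22 measured LT-HSC genes (right); filled circles are both aliquots with 95% counting intervals, open circles aliquot 1 and open squares aliquot 2. The upper bound of Dntt is infinite and is cut at the axis end, its points use a floor of 3 UMIs, and ratios in an aliquot with too few UMIs are not drawn. 11 of the 14 progenitor genes drawn lie above 1 and 19 of the 22 LT-HSC genes below 1.

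Cytokine receptors were near level as a list. Kit at 0.978 (0.843 to 1.13), Csf3r, the receptor of granulocyte colony-stimulating factor, at 0.913 (0.634 to 1.297) and Ifngr1 at 1.26 (0.923 to 1.70) had intervals that include 1. The list of 18 receptors had 13 measured, 3 at least 1.5-fold higher and 2 at least 1.5-fold lower, with a median log2 ratio of -0.03, beside 12.8% of all genes higher and 12.9% lower by that factor.

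The partners through which Flt3 signals, such as the adaptor Grb2, the kinase Akt1 and the factors Stat3 and Stat5b, were near level. Of 14 measured genes of that list, 2 were at least 1.5-fold higher, near the 12.8% of all genes, and 0 at least 1.5-fold lower, beside 12.9%. The median log2 ratio of the list was -0.16. Of the SLAM family and its adaptors, 3 genes besides Cd48 were measured: Cd84 at a ratio of 1.01 (0.625 to 1.59), the kinase Fyn at 1.01 (0.678 to 1.50), and Ly9 at 2.72 (0.996 to 7.79) from 11 against 8 UMIs. Slamf7 and Sh2d1a had 0 UMIs.

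Myeloid genes were higher. All 14 measured of 18 myeloid progenitor genes had a higher level in the Flt3 or Cd48 cells and 9 were at least 1.5-fold higher, beside 12.8% of all genes, with a median log2 ratio of 1.28. With a minimum of 30 UMIs over both cell sets, all 10 measured were higher, beside 3260 of 6767 over all genes. Of the 10, 6 were at least 1.5-fold higher, beside 9.15% of all genes, and the median was 0.97. Tyrobp, with 27 against 4 UMIs, passed both minimums only through the Flt3 or Cd48 cells. Neither count is thus free of genes let in by that side. Plac8, a cysteine-rich protein abundant in myeloid and lymphoid progenitors, had 826 CPM in aliquot 1 and 537 CPM in aliquot 2 in the Flt3 or Cd48 cells, against 181 CPM in aliquot 1 and 206 CPM in aliquot 2 in the matched others. All values of the Flt3 or Cd48 cells exceeded those of the others, and the ratio was 2.98 (2.44 to 3.66). Plac8 was seen in 41.4% of the Flt3 or Cd48 cells and 16.9% of the others, and in 22.4% against 6.21% at equal depth. Lyz2, the lysozyme of monocytes and granulocytes, had 1340 CPM against 217 CPM, a ratio of 6.18 (5.21 to 7.37), or 3.48 against all other kept cells without matching. Cst3, a protease inhibitor, had a ratio of 1.36 (1.15 to 1.60), and 1.11 (0.929 to 1.33) without the cells with monocyte genes described below. Coro1a, an actin regulator, had a ratio of 1.35 (1.11 to 1.65), and 1.25 (1.02 to 1.53) without those cells.

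Genes of monocytes were higher too, in few cells. Of the 16 monocyte and dendritic cell genes listed, 8 were measured. Of these, 7 were at least 1.5-fold higher, beside 12.8% of all genes, and the median log2 ratio was 1.70. Genes such as Ccr2 and F13a1, with 1 UMI each in the others, and Ctss passed the minimum only through the Flt3 or Cd48 cells. This count and this median are thus a description and support nothing. Over genes with 30 UMIs in both sets summed, 3 of 4 were at least 1.5-fold higher, beside 9.15% of all genes. F13a1, with 32 against 1 UMI, and Ctss, with 54 against 9 UMIs, again passed only through the Flt3 or Cd48 cells. This second count supports nothing either. The summed level of the list was 916 CPM in aliquot 1 and 643 CPM in aliquot 2 in the Flt3 or Cd48 cells, against 306 CPM in aliquot 1 and 283 CPM in aliquot 2 in the matched others. Ctss, a lysosomal protease, had 54 against 9 UMIs, a ratio of 11.9 (5.81 to 27.3). Ccr2, the chemokine receptor of inflammatory monocytes, had 27 UMIs in 11 cells against 1 UMI, a ratio of 53.4 (8.80 to 2186). Cd14, the lipopolysaccharide co-receptor, had 0 UMIs in the 210 cells and Csf1r, the receptor for macrophage colony-stimulating factor, had 4, and both are named as defining markers.

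Cells with 3 or more UMIs over Ccr2, F13a1, Ctss, Csf1r, Cd68, Fcgr1, Cd14 and Itgax, a limit set after the values were seen, numbered 13 of 212 Flt3 or Cd48 cells (6.13%, 3.31 to 10.3%). They numbered 16 of 3074 other kept cells (0.520%, 0.298 to 0.844%). By gene, 2 of the 160 cells with Flt3 and no Cd48 reached the limit (1.25%, 0.152 to 4.44%), against 11 of the 49 cells with Cd48 and no Flt3 (22.4%, 11.8 to 36.6%). Among cells with Cd48 and no Flt3 the share was 20% in aliquot 1 and 24.1% in aliquot 2.

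These 13 cells held 416 of the 550 Lyz2 UMIs (75.6%), between 1 and 96 per cell, and had 0 Kit and 0 Cd34 UMIs. On these transcripts they do not match the progenitor label. Without such cells in either set, the ratio of Lyz2 was 1.60 (1.26 to 2.02), that of Plac8 was 2.25 (1.81 to 2.79) and that of Cd34 was 2.00 (1.62 to 2.46). The median log2 ratio without them was 0.51 for the myeloid list, -0.30 for the monocyte list, 0.56 for the progenitor list and -0.39 for the LT-HSC list. Cells were left out by their monocyte UMIs, so the lower monocyte values without them follow from that choice and are no finding.

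Flt3 cells and Cd48 cells, each with depth-matched others of their own, both had more Cd34 and Plac8 than those others. Cd34 had a ratio of 1.90 (1.51 to 2.40) in 162 Flt3 cells and of 2.11 (1.35 to 3.30) in 52 Cd48 cells. Plac8 stood at 2.05 (1.60 to 2.63) in Flt3 cells and 6.84 (4.59 to 10.5) in Cd48 cells. The progenitor list had a median log2 ratio of 0.73 in Flt3 cells (15 genes) and 0.63 in Cd48 cells (13 genes). Over the genes measured in each set by itself, these medians were 0.61 in Flt3 cells and 0.85 in Cd48 cells, so no order is read. The myeloid list stood at 0.26 in Flt3 cells and 2.66 in Cd48 cells. Differences between Flt3 cells and Cd48 cells were not tested, since both come from 1 pool.

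As a list, stem cell genes had lower ratios in Cd48 cells than in Flt3 cells, a difference that was not tested. LT-HSC genes stood at a median log2 ratio of -0.33 in Flt3 cells and -1.50 in Cd48 cells, and at a summed level of 5101 CPM in Flt3 cells and 2974 CPM in Cd48 cells, against 6002 CPM and 5800 CPM in their matched others. Procr had a ratio of 0.808 (0.539 to 1.19) in Flt3 cells and 0.160 (0.0315 to 0.506) in Cd48 cells, the second from 3 UMIs. For Ifitm1 the ratios were 0.880 (0.731 to 1.06) in Flt3 cells and 0.189 (0.101 to 0.328) in Cd48 cells. Kit was level in Flt3 cells at 1.06 (0.895 to 1.24) and lower in Cd48 cells at 0.626 (0.437 to 0.883). These Cd48 values include the cells with monocyte genes, 11 of the 49 with Cd48 and no Flt3, and are not given without them. The 13 such cells of the whole set had 0 Kit UMIs. Against each other directly, cells with Flt3 alone had 4.66 times (2.65 to 8.92) the Ifitm1 level of cells with Cd48 alone and 0.103 times (0.0832 to 0.125) their Lyz2 level. Of the 425 Lyz2 UMIs of Cd48 cells, 93.6% lay in cells with monocyte genes and 96 in a single cell.

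**Figure D4:**
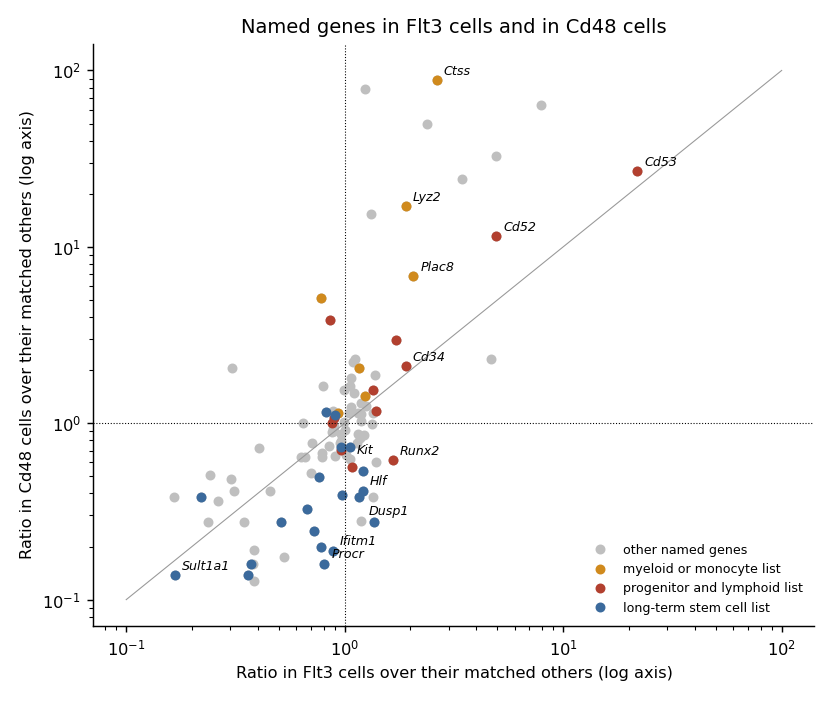
Ratios over depth-matched others of the named genes in Flt3 cells (horizontal log axis) and in Cd48 cells (vertical log axis); each point is a gene, coloured by list, dotted lines mark a ratio of 1, the solid line marks equal ratios, and genes with too few UMIs in either set are not drawn. Lyz2 lies at 1.90 in Flt3 cells and 17.0 in Cd48 cells, where cells with monocyte genes hold 93.6% of its UMIs, and Cd34 lies near the solid line at 1.90 and 2.11.

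Proliferation genes had higher levels more often than lower ones. Of 18 measured genes of the G2 and M phases, 16 had a higher level, with a median log2 ratio of 0.41. In this list 5 were at least 1.5-fold higher and 1 at least 1.5-fold lower, beside 12.8% and 12.9% of all genes. Of 19 measured S phase genes, 15 had a higher level, with a median of 0.20. In the S phase list 2 were at least 1.5-fold higher, a share no larger than the 12.8% of all genes. Over genes with at least 30 UMIs in both sets summed, 3260 of 6767 were higher. With that limit 16 of 17 G2 and M phase genes and 15 of 19 S phase genes were higher. Mki67, a chromosome surface protein of dividing cells, had a ratio of 1.45 (1.09 to 1.93), and Top2a, the topoisomerase of chromosome condensation, one of 1.37 (1.08 to 1.73). By gene the Mki67 ratio was 1.11 (0.769 to 1.59) in Flt3 cells and 2.32 (1.48 to 3.67) in Cd48 cells. That of Top2a was 1.09 (0.804 to 1.46) in Flt3 cells and 2.22 (1.50 to 3.30) in Cd48 cells. Without cells with monocyte genes the ratio was 1.31 (0.971 to 1.765) for Mki67 and 1.34 (1.05 to 1.70) for Top2a. Genes of growth and ribosome biogenesis (median -0.05), of quiescence (-0.04) and of the immediate early response (-0.17) were near level, although the last list stood at 0.31 in aliquot 1. Myc, named after its values were seen, had a ratio of 1.48 (1.18 to 1.85), with 1.51 in aliquot 1 and 1.47 in aliquot 2.

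Genes of other lineages were level or lower. Of 10 measured megakaryocyte genes 4 were at least 1.5-fold lower and 1 at least 1.5-fold higher, beside 12.9% and 12.8% of all genes. Their median log2 ratio was -0.44, but -0.02 against all other kept cells without matching, and -0.15 both in Flt3 cells and in Cd48 cells, so it depended on the cells compared. Pf4, named after its values were seen, had 18 against 78 UMIs, a ratio of 0.456 (0.257 to 0.769). The ratio of Pf4 was 1.07 against all other kept cells and 2.29 (1.50 to 3.51) in Flt3 cells, whose match took in a cell with 35 Pf4 UMIs. Of 8 measured erythroid genes, 1 was at least 1.5-fold higher, near the 12.8% of all genes, and 2 at least 1.5-fold lower, beside 12.9%. The median of the erythroid list was -0.11, and Hba-a1 had 0 UMIs. MHC class II genes had a median of -0.26 over 6 genes, with Cd74 at 1.097 (0.777 to 1.54).

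B cell, T or natural killer cell and basophil or mast cell lists had 1 measured gene each. Their summed levels were 36.5 CPM against 46.8 CPM for B cell genes, 99.9 CPM against 134 CPM for T and natural killer genes, and 460.4 CPM against 643 CPM for the basophil and mast cell list, most of which was Ifitm1. Gata3, the T cell factor that LT-HSCs also use, had a ratio of 0.442 (0.254 to 0.733), with 1.09 in aliquot 1. Homing and adhesion genes had a median of 0.25 over 16 genes, with -0.08 in aliquot 1 and 0.26 in aliquot 2. Of the 16, 2 were at least 1.5-fold higher and 0 at least 1.5-fold lower, beside 12.8% and 12.9% of all genes. The hyaluronan receptor Cd44 had a ratio of 1.44 (1.14 to 1.80; 0.945 in aliquot 1 and 0.874 after thinning). The tetraspanin Cd9 stood at 0.731 (0.581 to 0.913).

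**Figure D5:**
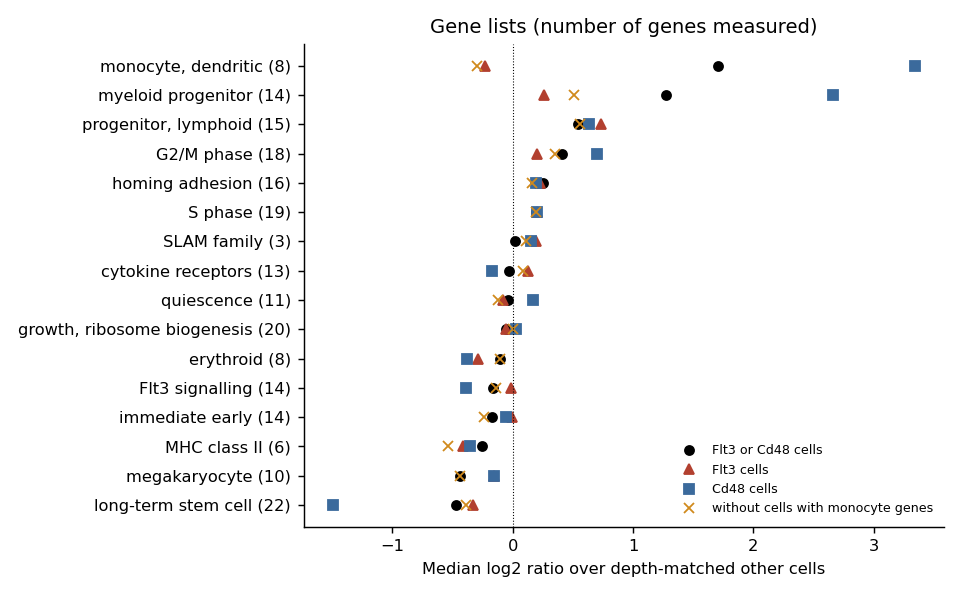
Median log2 ratio over depth-matched others (horizontal axis) for gene lists with at least 3 measured genes, with the number measured beside each name; circles are the Flt3 or Cd48 cells, triangles Flt3 cells, squares Cd48 cells and crosses the Flt3 or Cd48 cells without cells that carry monocyte genes. The myeloid list stands at 1.28, or 0.26 in Flt3 cells, 2.66 in Cd48 cells and 0.51 without cells with monocyte genes.

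Across all genes with at least 20 UMIs, 421 of 4691 (8.97%) were at least 1.5-fold higher and 399 (8.51%) at least 1.5-fold lower. The 15 highest that kept 1 direction in both aliquots and without their top cell included Ccr2, Lgals3 (a galectin), Mpeg1 (a pore-forming protein of macrophages), Cd53, Cybb (a subunit of the phagocyte oxidase), Tyrobp (a signalling adaptor), Fn1 (fibronectin), Ctss, Cd52, Lyz2, Ahnak, 1700025G04Rik, Ctsh (a lysosomal protease) and Fam105a. Their ratios ran from 53.4 for Ccr2 to 3.67 for Fam105a. These genes were picked as the highest ratios of these same cells. Some, such as Lgals3 with 51 against 2 UMIs, passed the minimum only through the Flt3 or Cd48 cells. Their ratios and intervals, here and below, are thus a description and support nothing. Without cells with monocyte genes, Ccr2 had 0 against 1 UMI and several intervals took in 1. These were Cybb at 2.47 (0.532 to 12.5), Tyrobp at 2.97 (0.703 to 14.3), Ctss at 1.98 (0.695 to 5.62) and Ctsh at 1.38 (0.447 to 4.03). Lgals3 at 8.89 (1.84 to 84.6; 9 against 2 UMIs), Fam105a at 3.04 (1.81 to 5.19) and 1700025G04Rik at 4.15 (1.87 to 9.87) had intervals above 1. In Flt3 cells Ahnak had a ratio of 1.24 (0.501 to 2.90), and without cells with monocyte genes it had 1.40 (0.608 to 3.10) in the whole set. Fn1 had a ratio of 12.2 (5.10 to 35.4), and 0.329 (0.00716 to 2.71) without cells with monocyte genes, from 1 against 6 UMIs. Mpeg1 was left with 3 against 2 UMIs.

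The 15 lowest began with Sult1a1. After it came Xpa (a DNA repair protein), Pnpla8 (a phospholipase), Ryk (a Wnt receptor), Twsg1 (a secreted binder of bone morphogenetic proteins), Ctnnal1, Scamp1, Camk2d (a calcium-dependent kinase), Snapin, Champ1, Tinagl1, Igf1r (the receptor of insulin-like growth factor), Rcn1, Pdhb (a subunit of pyruvate dehydrogenase) and Cpt1a (the gate of fatty acid oxidation). Their ratios ran from 0.171 for Sult1a1 to 0.366 for Cpt1a, and each had between 4 and 15 UMIs in the Flt3 or Cd48 cells. Ranking needed 20 UMIs observed or expected, so all of them passed only through the matched others. They were also picked as the lowest ratios of these same cells. Their ratios and intervals are thus a description and support nothing. Cpt1a had 15 against 81 UMIs (0.196 to 0.640) and Igf1r had 9 against 52 UMIs (0.148 to 0.701).

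Reporter transcripts were rare in the Flt3 or Cd48 cells. In all, 70 kept cells held a GFP UMI, and the series design gives 46 GFP cells after the authors' processing, whose filter is not known here. A GFP UMI was found in 2 of 212 Flt3 or Cd48 cells (0.943%, 0.115 to 3.37%), against 68 of 3074 other kept cells (2.21%, 1.72 to 2.80%) and 14 of 419 matched others (3.34%, 1.84 to 5.54%). Both cells were Flt3 cells of aliquot 2. The intervals of the Flt3 or Cd48 cells and of the matched others overlap. Among Cd48 cells 0 of 52 held a GFP UMI, which by the limit of 3 counts allows a share of cells with a GFP UMI of up to 5.77%. That limit does not bound the share of cells that carry the reporter.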

How the data were processed

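Single-cell RNA was captured on the inDrops platform, per the labels' protocols, from 1 pool loaded as 2 aliquots. The authors deposited UMI counts that are whole and not normalized, with 28206 features in each aliquot. RSEM 1.3.0, Bowtie 1.1.1, SAMtools 1.3.1 and GRCm38 are named, without roles, in the submitters' processing notes. The sources used here do not say how reads of near-identical gene copies were divided, and genes with close copies are uncertain. Aliquot 1 held 2147 barcodes and 1801787 UMIs and aliquot 2 held 8662 and 4726601.

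Of 3402 barcodes past the depth and mitochondrial limits, 3286 passed the limits on granule genes and carried 5371835 UMIs. Each Flt3 or Cd48 cell was matched to 2 other cells of its aliquot, within 0.2 log2 units of total UMIs, deepest first, without replacement. Totals left out GFP, Flt3 and Cd48. UMIs were summed per set, scaled to 1000000 (CPM) and divided, with exact conditional binomial intervals for ratios, Poisson intervals for CPM and Clopper-Pearson intervals for shares, at 95%. They cover counting error only. The pool is the only unit, so there is no p-value. A count of 0 was set to 3 counts over the set for ratios.

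The chosen cells, their markers and the 19 gene lists were chosen with earlier results of these data known. Named genes are the measured members (at least 10 UMIs observed or expected) of the progenitor, LT-HSC and SLAM lists, the 4 members with most UMIs of each other list, and the 15 highest and 15 lowest ratios. The last need 20 UMIs, 10 cells, 1 direction in both aliquots (each counting from 5 UMIs) and no dependence on the top cell. 117 genes were named, of which a few are not reported here.

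Doublets were kept. Scrublet in scanpy 1.11.5, with an expected rate of 6%, marked 7 of 1574 cells in aliquot 1 (0.445%) and 14 of 1828 in aliquot 2 (0.766%), 3 of them Flt3 or Cd48 cells. The aliquots share 461 barcode names, carried by 421 kept cells of which 27 were Flt3 or Cd48 cells, and none was chosen in both. Alternatives changed depth, mitochondrial, granule gene and list limits, the matching, the thinning and the cells used, and left out each aliquot. The ratio calculation was tested on simulated data. Positions are from GENCODE vM21 and promoters from RefSeq. The gene name table held 26589 of the symbols. Python 3.11.15, numpy 2.4.6, scipy 1.17.1 and matplotlib 3.10.9 were used.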

Additional observations from a re-analysis of the deposited data

Results flagged for a closer look

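Flt3 cells and Cd48 cells differed in direction in both aliquots for 5 named genes, a difference that was not tested. In all, 117 genes were named, and the share of all genes that differ in this way is not given here. Hlf, a stem cell factor, had a ratio over matched others of 1.21 in Flt3 cells and 0.415 in Cd48 cells. Dusp1, a phosphatase of the immediate early response, had 1.19 in Flt3 cells and 0.281 in Cd48 cells. Runx2 had 1.66 in Flt3 cells and 0.620 in Cd48 cells. Fyn, a kinase that binds SLAM adaptors, ran the other way, with 0.797 in Flt3 cells and 1.62 in Cd48 cells. Zfp36, which promotes decay of inflammatory transcripts, had 1.17 in Flt3 cells and 0.823 in Cd48 cells. The Hlf intervals were 1.03 to 1.42 in Flt3 cells and 0.263 to 0.633 in Cd48 cells, and those of Fyn and Zfp36 include 1 in both. The Cd48 values include the cells with monocyte genes.

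Cd48 was also present in cells left out by the limits on granule genes. Of those 116 cells, 12 had a Cd48 UMI (10.3%, 5.46 to 17.4%; median 2226 UMIs), against 52 of 3286 kept cells (1.58%, 1.18 to 2.07%; median 1382 UMIs). Flt3 was seen in 6 of the 116 (5.17%, 1.92 to 10.9%), against 4.96% of kept cells.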

How the results depend on the processing

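No paired analysis was possible because the replicate numbers only name the aliquots of 1 pool and no result comes from a test. The Cd34 and Cd27 ratios stayed within their counting intervals and above 1 under each alternative run. The share of chosen cells ranged from 5.03 to 7.72% over single aliquots and was 7.73% with at least 1000 UMIs, 1.52% with at least 2 UMIs of the genes, 4.96% by Flt3 alone and 1.58% by Cd48 alone. The list medians below use the genes measured in each setting, so they can differ from medians over a fixed gene set. The progenitor median ranged from 0.34 to 0.51 over single aliquots. It was 0.77 with stricter granule gene limits, 0.92 with at least 2 UMIs, 0.61 by Flt3 alone and 0.85 by Cd48 alone. With 1 match it was 0.67, against all others 0.71 and after thinning 0.36. The LT-HSC median ranged from -0.45 to -0.39 over single aliquots and was -0.57 without granule gene limits, -0.52 with stricter ones, -0.77 with at least 2 UMIs, -0.31 by Flt3 alone, -1.36 by Cd48 alone, -0.53 without Gata1 or Klf1 cells, -0.65 against all others and -0.52 after thinning. It was -0.60 over genes with at least 5 UMIs and -0.40 with at least 30. Over genes with at least 30 UMIs in both sets summed, a limit chosen after seeing the data, the medians were 0.52 for the progenitor list and -0.47 for the LT-HSC list. The LT-HSC median was -0.39 both without shared barcodes and without cells with monocyte genes, alternatives chosen after seeing the data, as was leaving out Scrublet's cells.

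Genes at least 1.5-fold higher ranged from 99 to 407 over single aliquots and numbered 196 with at least 2 UMIs, 221 by Cd48 alone, 74 after thinning, 961 with at least 10 UMIs per gene and 61 with at least 50. Genes at least 1.5-fold lower ranged from 63 to 369 and numbered 135, 148, 44, 973 and 55 under the same settings. Fewer cells or UMIs leave fewer genes past the minimum. Without aliquot 2 the direction turned for Cd44 (0.946; 1.65 without aliquot 1), Gata3 (1.09; 0.347), Hspe1 (1.43; 0.619), Mcm7 (0.927; 1.38), Mllt3 (1.18; 0.525), Rap1b (1.05; 0.670) and Tek (1.20; 0.253). After thinning it turned for Cd44 (0.874) and Fgd5 (1.04). By Cd48 alone it turned for Fli1 (1.01) and Runx2 (0.620), by Flt3 alone for Ms4a6c (0.780), with at least 2 UMIs for Runx2 (0.909), and without cells with monocyte genes for Fn1 (0.329) and Ms4a6c (0.644). The cause was not tested. Depth limits most values: 162 of 212 chosen cells rest on 1 UMI.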
